A study of Mus musculus with 23 samples.

Results

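The bile acid and biliary lipid transporters of the hepatocyte were chosen by name, as 10 genes (Abcb11, Abcb4, Abcg5, Abcg8, Abcc2, Abcc3, Slc10a1, Slco1b2, Slco1a1 and Slco1a4) of the 22852 genes listed for both sexes in the deposited tables. The rule itself used no measured value. All 10 were listed in both tables, and all 10 passed the filter on low counts in each sex. They were followed across 23 mouse livers by RNA sequencing. The groups were 5 control males and 6 LKO males, and 6 control females and 6 LKO females, named B100-Control and B100-LKO in the labels. LKO is the ablation of hepatic Cpt1a, which encodes the liver enzyme for the carnitine-dependent entry of fatty acids into mitochondria. The B100 genotype, a WD diet given for 16 weeks and necropsy in the fed state were common to every group, controls included. The ages of the mice and the construct that drove the ablation are not given in the sources used here. The labels do not state that each sample came from a separate animal, so p-values measure the spread between these samples.

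Bile is formed when hepatocytes pump bile acids, phospholipid, cholesterol and conjugated organic anions across the canalicular membrane, and water follows. Bile acids that return from the intestine in portal blood are taken up again across the sinusoidal membrane, which closes the enterohepatic circulation. Abcb11 is the canalicular bile salt export pump, Abcb4 moves phosphatidylcholine into bile, Abcg5 and Abcg8 are half-transporters that together form the biliary sterol exporter, and Abcc2 exports conjugated anions such as bilirubin glucuronides. Abcc3 exports conjugates back into blood. Slc10a1 is the sodium-dependent uptake carrier for conjugated bile acids, and Slco1b2, Slco1a1 and Slco1a4 are sodium-independent organic anion uptake carriers.

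Promoter windows from RefSeq (build GRCm38.p6), each of 250 bases before to 50 after a gene start, were found for 9 of the 10 genes, in 11 windows; Abcc3 had no entry. Abcg5 and Abcg8 are shown first because they lie head to head. Their listed starts are 110 bases apart on chromosome 17, and their windows share 209 bases. The stretch below runs from 30 bases inside Abcg5 to 30 bases inside Abcg8, at chr17:84682982-84683150 on the plus strand, and is read in the direction of Abcg8. Capitals mark every match to AGATAA, the motif that zinc finger proteins of the GATA family bind, searched on both strands. Read from the opposite strand it appears as TTATCT.
Abcg5 and Abcg8: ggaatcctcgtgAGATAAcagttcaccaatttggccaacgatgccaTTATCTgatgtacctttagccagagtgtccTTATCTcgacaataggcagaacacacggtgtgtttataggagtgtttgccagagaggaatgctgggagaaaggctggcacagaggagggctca
The stretch holds 3 matches, and 11.2% of the 32817 promoter windows hold at least 1. No window of the other members had this motif. RefSeq lists a second Abcg8 start 6819 bases away from the one shown.

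The promoter of Abcb11 is shown because this gene is a textbook target of the bile acid receptor FXR (Nr1h4), which binds inverted repeats of a nuclear receptor half-site. The 150 bases before its start lie at chr2:69342617-69342766 on the minus strand of GRCm38.p6. Capitals mark an inverted repeat, GGNCA and TGACC with any 1 base between them, searched on both strands.
Abcb11: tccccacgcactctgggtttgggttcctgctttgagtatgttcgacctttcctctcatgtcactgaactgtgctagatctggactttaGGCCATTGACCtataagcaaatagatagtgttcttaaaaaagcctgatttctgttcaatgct
The match began 62 bases before the start. This motif was spelled after the Abcb11 window had been read, and 0.238% of all windows hold it. Slco1b2 was the other member with a match, 87 bases before its start. The half-site TGACCT, which overlaps that motif, was present in windows of 5 members (Abcb11, Abcc2, Slc10a1, Slco1a1 and Slco1b2) and in 16.3% of all windows. CAAGGTCA, bound by NR5A2, was found in no member window and in 1.56% of all windows.

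Total counts ran from 14224665 to 19626662 per sample, and control male replicate 4 had the lowest. Expression is given as CPM, the count of a gene after each library is brought to a common total, with trimmed mean of M-values (TMM) factors over all 23 livers. Cpt1a checked the genotype labels. It was at 301 to 426 CPM in control males and 41.7 to 95.8 CPM in LKO males, and at 287 to 436 CPM in control females and 62.3 to 87.6 CPM in LKO females. The 5 listed hepatocyte markers found in both tables summed to 50685 to 96542 CPM per liver.

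In the deposited tables (mm39, per the submitters' processing notes) Abcb11 lies on the minus strand of chromosome 2 from 69068626 to 69172960, and Abcb4 on the plus strand of chromosome 5 from 8943717 to 9009231. Abcg5 spans 84965662 to 84990439 (minus) and Abcg8 spans 84983730 to 85007761 (plus) on chromosome 17. Abcc2 lies on chromosome 19 from 43770631 to 43829179 (plus), Abcc3 on chromosome 11 from 94234121 to 94283823 (minus) and Slc10a1 on chromosome 12 from 80999957 to 81015479 (minus). Slco1b2 (141575244 to 141632372, plus), Slco1a4 (141751166 to 141801925, minus) and Slco1a1 (141853008 to 141892688, minus) follow each other on chromosome 6. These positions are not comparable with those of the promoter stretches, whose build is older.

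Levels of the 10 transporters were first set in order on a per-length scale, CPM per kilobase of the gene length in the tables. Slc10a1 had the highest level in all 4 groups, followed in each group by Slco1b2, Abcg5 and Abcg8 in that order. Slc10a1 stood at 192 ± 49.9 CPM per kb in control males (SD, n = 5) and 291 ± 38.7 in control females (SD, n = 6), and Slco1b2 at 102 ± 15.5 and 118 ± 10.3. In control females Slco1b2 and Abcg5 (108 ± 35.4 CPM per kb) differed by less than their spread. In control males Abcg8 (52.6 ± 19.4), Abcb11 (50.5 ± 16.5) and Abcc3 (46.4 ± 12.8 CPM per kb) also differed by less than their spread. The last place was sex-dependent by value: Slco1a4 was lowest in both male groups, at 3.10 ± 0.798 CPM per kb in control males and 4.20 ± 1.63 in LKO males, whereas Slco1a1 was lowest in both female groups, at 5.49 ± 5.41 in control females and 5.12 ± 3.77 in LKO females.

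**Figure D1:**
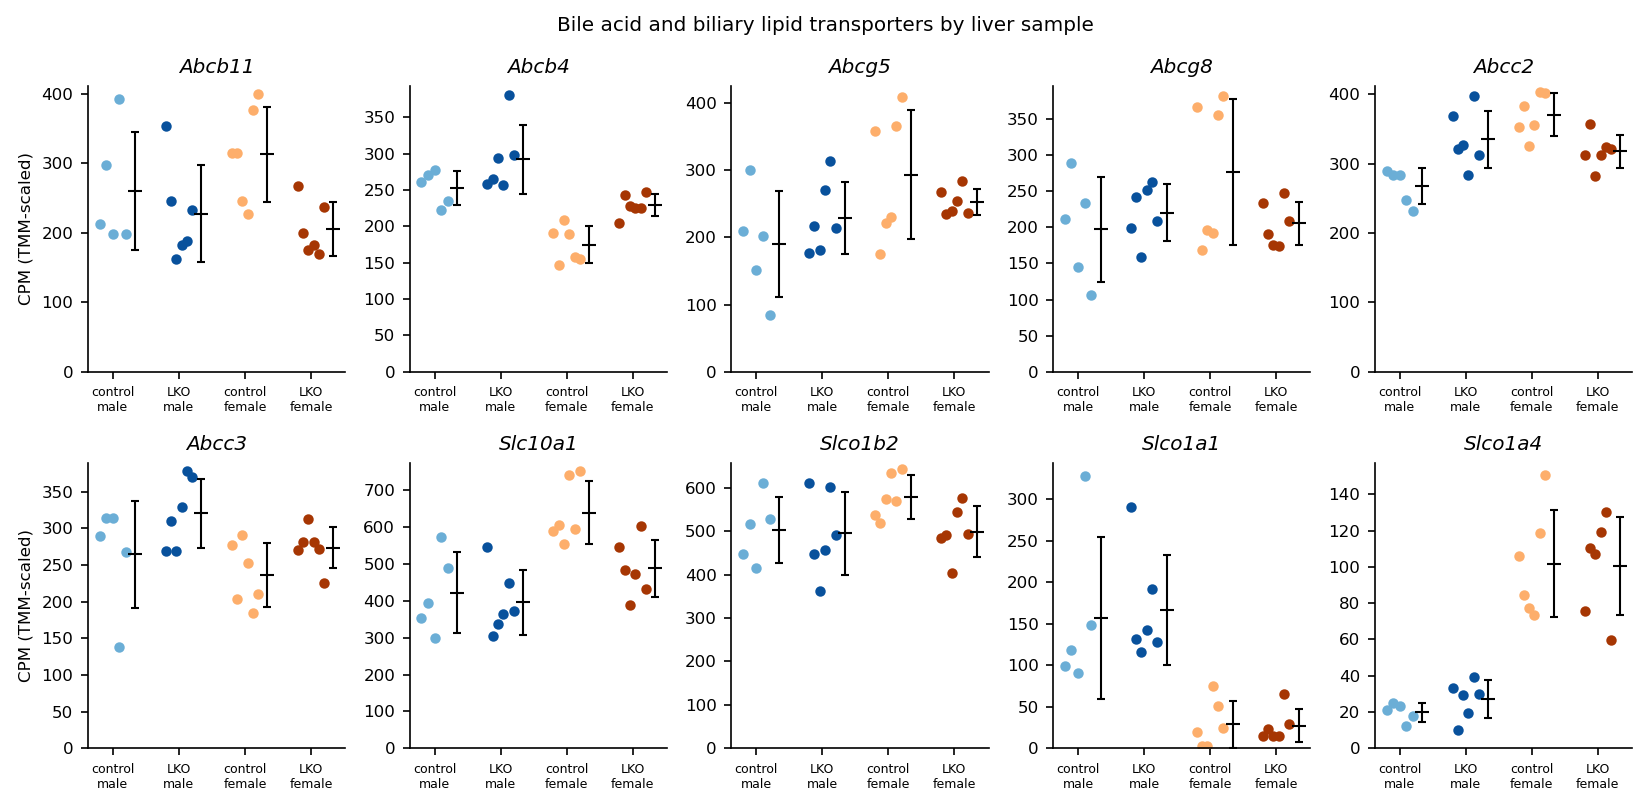
Each point is 1 liver; the y axes give CPM scaled by TMM factors on a linear axis from 0, and the bar beside each group is the mean with its SD (5 control males, 6 in each other group). Slco1a1 is high in males and Slco1a4 in females, 3 control females stand above the others for Abcg5 and Abcg8, and control male replicate 4 has the highest Slco1a1 value, 328 CPM.

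The comparison of LKO with control livers asked whether loss of hepatic Cpt1a went with a change in these transporters, within each sex. No member was called in males by edgeR's quasi-likelihood test at an adjusted p under 0.05, where 0.00724% of the 13805 genes tested were called (1 gene, Cpt1a). In females no member was called either, where 1.42% of 13684 genes were. At an unadjusted p under 0.05 there were 1 member in males (Abcc2), against 12.5% of all genes, and 5 in females (Abcb11, Abcb4, Abcc2, Slc10a1 and Slco1b2), against 15.6% of all genes. DESeq2 called 0 members in males (1.27% of the genes it tested) and 3 in females (3.64%), namely Abcb11, Abcb4 and Slc10a1. The authors' deposited table has adjusted p-values under 0.05 for the same 3 in females. Those values repeat the DESeq2 ones on the same counts (0.00677 for Abcb11 in both), so they add no separate support. No member had groups without overlap in either sex, beside 1.77% of genes in males and 1.59% in females. The median log2 fold change of the 10 was 0.18 in males, with 7 above 0 (52.1% of all genes were), and -0.22 in females, with 8 below 0 (48.9% of all genes were). Over all genes tested the medians were 0.010 and 0.0051.

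Among the canalicular exporters, Abcb11 was the member with the largest female difference by size. Control females had 227 CPM at the lowest, 314 at the median and 399 at the highest, and LKO females had 169, 191 and 268 CPM. All 6 LKO females were below the control mean, 4 of them below every control, and the groups overlapped. LKO against control, the log2 difference was -0.61 (SE 0.15, 95% interval -0.94 to -0.28), a ratio of 0.655, with an edgeR adjusted p of 0.0644 and a DESeq2 adjusted p of 0.00677. Without control female replicate 3, control female replicate 4 or LKO female replicate 1, the edgeR adjusted p was 0.0434, 0.0327 or 0.0350. Over the 12 such fits it ran from 0.0327 to 0.148.

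In males the 5 controls had 213, 297, 198, 393 and 198 CPM of Abcb11 (replicates 1, 2, 3, 4 and 6). LKO males had 162 CPM at the lowest, 211 at the median and 354 at the highest. The groups overlapped over most of their range, and the highest liver of each was control replicate 4 and LKO replicate 1. The male log2 difference was -0.19 (SE 0.22, edgeR adjusted p 0.782). It was 0.0021 without control male replicate 4 and -0.36 without LKO male replicate 1.

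Abcb4, the phospholipid floppase, lay in the opposite direction in females. Control females had 147 CPM at the lowest, 174 at the median and 209 at the highest, and LKO females had 205, 227 and 247 CPM. A single control, replicate 3, reached into the LKO range, and 5 of the 6 LKO females were above every control. On the log2 scale the difference was 0.39 (SE 0.093, 95% interval 0.19 to 0.59), a ratio of 1.31, with an edgeR adjusted p of 0.0538 and a DESeq2 adjusted p of 0.00616. Without control female replicate 3 the edgeR adjusted p was 0.0282, and without LKO female replicate 1 it was 0.0446. Over the 12 such fits it ran from 0.0282 to 0.135.

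The control males had 261, 271, 277, 223 and 235 CPM of Abcb4, in the order given above. LKO males had 257 CPM at the lowest, 280 at the median and 381 at the highest, so that all 6 were above the control mean while the groups overlapped. In males the log2 difference was 0.20 (SE 0.11, edgeR adjusted p 0.486). Abcb4 thus had a positive estimate in each sex, and the difference between the sexes was 0.18 (SE 0.15, adjusted p 0.629 for the genotype by sex interaction).

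Abcg5 and Abcg8, the partners of the sterol exporter, had a wide spread among control livers. Control females 1, 5 and 6 had 359, 367 and 409 CPM of Abcg5, and control females 2, 3 and 4 had 176, 222 and 230 CPM. LKO females lay between these sets, from 235 to 284 CPM. The coefficient of variation was 32.6% in control females and 7.68% in LKO females, a difference in spread that was not tested. Abcg8 repeated the split: the same 3 controls had 367, 355 and 382 CPM and the other 3 had 169, 197 and 192 CPM, beside 174 to 247 CPM in LKO females. In females the log2 difference was -0.22 (SE 0.18, edgeR adjusted p 0.610) for Abcg5 and -0.43 (SE 0.20, 95% interval -0.87 to 0.0015, edgeR adjusted p 0.321) for Abcg8.

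Control males had 210, 300, 152, 203 and 85.2 CPM of Abcg5 and 212, 289, 145, 234 and 106 CPM of Abcg8. LKO males had 177 CPM at the lowest, 216 at the median and 314 at the highest for Abcg5, and 159, 225 and 262 CPM for Abcg8. For both genes control replicate 2 was the highest control and control replicate 6 the lowest. Male log2 differences were 0.27 (SE 0.25, edgeR adjusted p 0.722) for Abcg5 and 0.16 (SE 0.22, edgeR adjusted p 0.825) for Abcg8. Leaving out control male replicate 2 gave 0.50 and 0.35, and leaving out control male replicate 6 gave 0.081 and 0.0010.

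These 2 genes followed each other closely from liver to liver. With group means removed, log2 CPM of Abcg5 and Abcg8 correlated at Pearson's r = 0.946 in the 11 males (permutation p 2e-05, Spearman's rho 0.909, p 0.00028) and r = 0.954 in the 12 females (permutation p 1e-05, the smallest that 100000 resamples can give; rho 0.923, p 7e-05). Adjusted over these 2 relations the p-values of r were 2e-05 in both. Without the 2 livers farthest from the median of Abcg5, r was 0.845 in males and 0.941 in females. Within the 6 LKO males alone r was 0.836, and within the 6 LKO females, which lacked the spread of the controls, it was 0.719. The tables place the genes on opposite strands of chromosome 17, with 6710 bases in common. Genes begun at the head-to-head starts shown above, 110 bases apart, would not overlap. RefSeq lists a further Abcg8 start 6819 bases from the one shown, on the side of Abcg5. From that start to the Abcg5 start, both included, is 6710 bases, the same length as the common part. The positions themselves were not carried across the builds. The sources used here do not give the strand setting of the counting, so whether reads in the common part were split between the 2 genes by strand is unknown, and their part in the correlation was not tested.

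**Figure D2:**
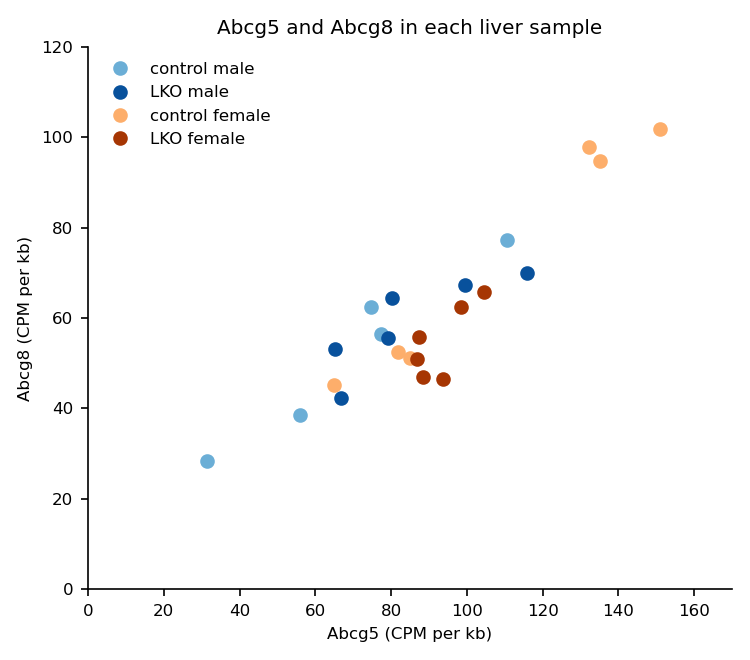
Each point is 1 liver, with Abcg5 on the x axis and Abcg8 on the y axis, both in CPM per kb of gene length on linear axes; colours give the 4 groups. The livers lie along 1 band, with control females 1, 5 and 6 at its upper end and control male 6 at its lower end.

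The ratio of Abcg5 to Abcg8, per length, ran from 1.11 to 2.02 over the 23 livers. It was 1.31 ± 0.151 in control males (SD, n = 5), 1.43 ± 0.174 in LKO males, 1.49 ± 0.110 in control females and 1.72 ± 0.188 in LKO females (SD, n = 6 each). In LKO females it ran from 1.56 to 2.02 and in control females from 1.35 to 1.66, so the groups overlapped.

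Abcc2, the canalicular exporter of conjugates, was the member whose estimates pointed in opposite directions in the 2 sexes with intervals clear of 0. Control males had 290, 284, 284, 248 and 231 CPM, and LKO males had 283 at the lowest, 324 at the median and 398 at the highest. In males 5 of the 6 LKO livers were above every control. Control females had 326 CPM at the lowest, 370 at the median and 403 at the highest, and LKO females had 282, 317 and 356 CPM. In females 5 of the 6 LKO livers were below every control. Log2 differences were 0.32 in males (SE 0.10, 95% interval 0.10 to 0.54, edgeR adjusted p 0.279) and -0.22 in females (SE 0.079, 95% interval -0.39 to -0.056, edgeR adjusted p 0.176).

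The genotype by sex interaction tested this difference itself. For Abcc2 the female difference minus the male difference was -0.55 (SE 0.12, 95% interval -0.80 to -0.29), with an unadjusted p of 2.0e-04, rank 21 of 14503 genes and an edgeR adjusted p of 0.136. Over the alternatives tried its adjusted p ran from 0.0140 with DESeq2 to 0.252. edgeR called 0 members and 0% of all genes for the interaction, with 1 member (Abcc2) and 12.9% of genes at an unadjusted p under 0.05. DESeq2 called 1 member, again Abcc2, and 0.721% of genes. The other 9 members had interaction estimates from -0.59 (Abcg8, SE 0.32) to 0.18 (Abcb4), with edgeR adjusted p-values from 0.445 to 0.943.

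Abcc3, the sinusoidal exporter of conjugates, had positive estimates in both sexes. Control males had 289, 313, 314, 139 and 267 CPM, and LKO males had 269 at the lowest, 319 at the median and 378 at the highest. Control male replicate 4 lay far below the other livers of its group, and the groups overlapped. Control females had 184 CPM at the lowest, 232 at the median and 291 at the highest, and LKO females had 225, 276 and 313 CPM. LKO differed from control by a log2 value of 0.27 in males (SE 0.19, edgeR adjusted p 0.574), or 0.11 without control male replicate 4, and 0.21 in females (SE 0.12, edgeR adjusted p 0.414).

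**Figure D3:**
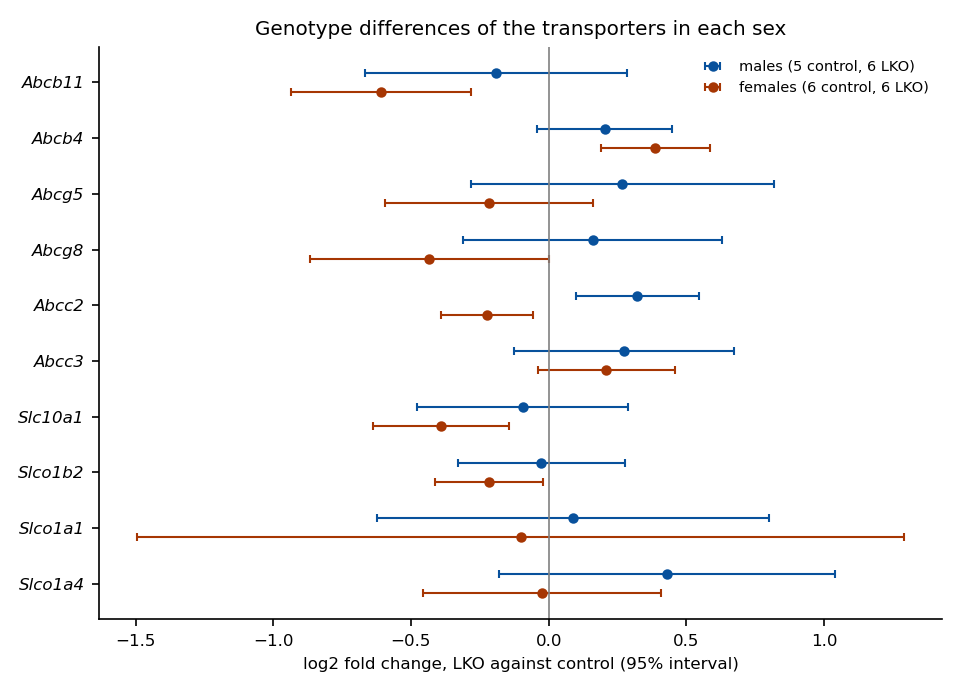
Points are edgeR log2 fold changes of LKO against control for the 10 genes, on the x axis, with 95% intervals; males and females were fitted apart. The intervals of Abcb11, Abcb4, Abcc2, Slc10a1 and Slco1b2 in females and of Abcc2 in males lie clear of 0, and none of these passed the adjusted threshold in edgeR.

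Of the uptake carriers, Slc10a1 was lower by estimate in LKO females. Control females had 553 CPM at the lowest, 600 at the median and 753 at the highest, and LKO females had 389, 479 and 604 CPM. LKO female replicate 5 lay within the control range and the other 5 were below every control. Its female log2 difference was -0.39 (SE 0.12, 95% interval -0.64 to -0.14), a ratio of 0.763, with an edgeR adjusted p of 0.112 and a DESeq2 adjusted p of 0.0301. Control males had 354, 394, 299, 574 and 489 CPM of Slc10a1, beside 306, 368 and 547 CPM as the lowest, median and highest LKO males. The male log2 difference was -0.094 (SE 0.18, edgeR adjusted p 0.881), and 0.038 without control male replicate 4.

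Slco1b2 had the highest level per length among the 3 organic anion uptake carriers in every group. Control females had 518 CPM at the lowest, 572 at the median and 644 at the highest, and LKO females had 404, 492.6 and 577 CPM, with 4 of the 6 LKO livers below every control. The female log2 difference was -0.22 (SE 0.092, edgeR adjusted p 0.271). Control males had 447, 516, 415, 611 and 528 CPM, and LKO males had 362, 473 and 611 CPM as lowest, median and highest. The male log2 difference was -0.026 (SE 0.14, edgeR adjusted p 0.961).

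Slco1a1 was the least even member. Control females had 19.3, 2.72, 2.46, 74.8, 50.7 and 23.96 CPM (replicates 1 to 6), a 30.3-fold range within 1 group, and the lowest of these rested on 36 counts. LKO females had 14.3 CPM at the lowest, 18.98 at the median and 65.9 at the highest. Control replicates 2 and 3 were below every LKO female and control replicate 4 was above every one. The female log2 difference was -0.10, with a 95% interval of -1.49 to 1.29 (edgeR adjusted p 0.963), so differences within that interval, in either direction, could not be detected at this spread. In males the controls had 98.8, 119, 90.9, 328 and 148 CPM and the LKO livers 116, 137 and 291 CPM as lowest, median and highest. The male log2 difference was 0.089 (SE 0.33, edgeR adjusted p 0.944) and 0.54 without control male replicate 4.

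Slco1a4 had the lowest counts in males, 151 to 636 per liver. Control males had 20.9, 25.03, 23.5, 12.1 and 17.8 CPM, and LKO males had 10.2 at the lowest, 29.6 at the median and 39.3 at the highest. LKO males lay on both sides of the controls, 4 above all of them and 1 below. The log2 difference in males was 0.43 (SE 0.28, edgeR adjusted p 0.564), the largest male estimate among the members. Control females had 73.6, 95.2 and 150 CPM as lowest, median and highest and LKO females 59.6, 109 and 130 CPM, with a log2 difference of -0.023 (SE 0.20, edgeR adjusted p 0.974). Slco1a1, Slco1a4 and Slco1b2 are paralogs on 1 stretch of chromosome 6, and counting that splits reads between near-identical stretches would leave their levels uncertain.

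In bulk liver, fewer cells of a type and less RNA per cell cannot be told apart. Markers of bile duct cells were higher by sum in LKO females. The summed CPM of the 7 cholangiocyte markers (all detected) was 40.4 to 50.3 in control females and 52.0 to 87.8 in LKO females, with 1 of the 7 called by edgeR. The summed CPM of the 5 hepatocyte markers was 82811 to 96542 in control females and 57446 to 89421 in LKO females, with none of the 5 called, and that of the 8 macrophage markers was 304 to 487 and 369 to 492, with 3 of the 8 called. Over all genes tested in females 1.42% were called, and the direction of each marker call is not reported here. In males the cholangiocyte sum was 33.4 to 134 CPM in controls and 36.0 to 161 in LKO livers. There 0 of the hepatocyte, cholangiocyte and macrophage markers were called, beside 0.00724% of all genes. The part of these markers in the differences of Abcb11, Abcb4 and Slc10a1 was not tested.

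The control livers of the 2 sexes differed in transporters of both membranes. edgeR called 5 of the 10 members between control females and control males, where 18% of 13699 genes were called. Abcc2, Slc10a1 and Slco1a4 were higher in females (8.8% of genes were called higher), and Abcb4 and Slco1a1 were lower (9.19% were called lower). The 2 sexes were deposited as separate tables, so sex and table cannot be told apart. Groups did not overlap for 4 of the 10 members (Abcb4, Abcc2, Slco1a1 and Slco1a4), beside 10.3% of all genes. The median log2 fold change of the 10 was 0.37, and 0.0045 over all genes tested. Summed hepatocyte markers were 52918 to 77719 CPM in control males and 82811 to 96542 CPM in control females, without overlap. Summed cholangiocyte markers were 33.4 to 134 CPM and 40.4 to 50.3 CPM, with overlap. The part of these markers in the differences between the sexes was not tested.

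Slco1a4 had the strongest test of the members. It was at 19.9 ± 5.12 CPM in control males (SD, n = 5) and 102 ± 29.5 CPM in control females (SD, n = 6), a 5.10-fold difference (95% interval 3.65 to 7.11, edgeR adjusted p 2.3e-05). Slco1a1 was the mirror image, at 157 ± 98.1 CPM in control males and 29.0 ± 28.6 CPM in control females, with a log2 difference of -2.44 (SE 0.71, edgeR adjusted p 0.0314). That call was lost when control male replicate 4 or 6, or control female replicate 1 or 6, was left out, with adjusted p-values of 0.0564, 0.0559, 0.0627 and 0.0657. In mouse liver Slco1a1 is known as a male-predominant and Slco1a4 as a female-predominant carrier. Of other sex-biased liver genes listed, 10 of 10 male-biased genes were called lower and 11 of 11 female-biased genes tested were called higher in control females. Those lists were chosen with such differences known.

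Slc10a1 was at 422 ± 110 CPM in control males (SD, n = 5) and 640 ± 85.2 CPM in control females (SD, n = 6), a log2 difference of 0.60 (SE 0.16, edgeR adjusted p 0.0193). Without control male replicate 1 its adjusted p was 0.0535. Abcc2 was at 267 ± 26.1 and 370 ± 30.8 CPM, a log2 difference of 0.47 (SE 0.091, edgeR adjusted p 0.00439), and the lowest control female lay above the highest control male. Abcb4 was at 253 ± 23.4 and 175 ± 25.03 CPM, a log2 difference of -0.54 (SE 0.11, edgeR adjusted p 0.00494). Abcg5 (0.63, SE 0.29, adjusted p 0.150), Abcg8 (0.49), Abcb11 (0.27), Slco1b2 (0.20) and Abcc3 (-0.17) were not called.

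**Figure D4:**
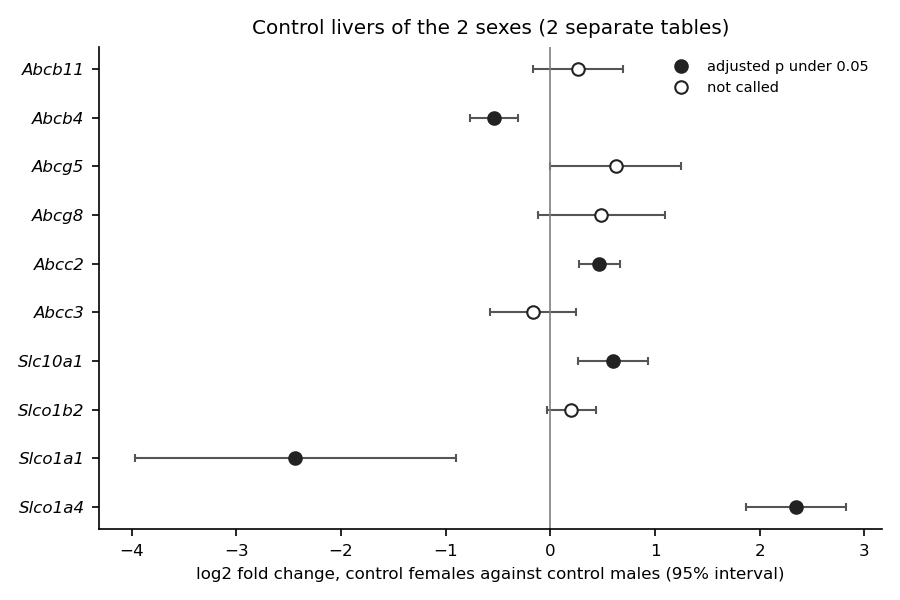
Points are edgeR log2 fold changes of 6 control females against 5 control males, on the x axis, with 95% intervals, and filled points passed an adjusted p under 0.05. Slco1a4 (2.35) and Slco1a1 (-2.44) lie far from 0 on opposite sides.

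Relations between members were then described over the 45 pairs, on log2 CPM with the mean of each of the 4 groups removed, over the 23 livers, with values permuted within groups. A positive r had an adjusted p under 0.05 in 5 pairs and a negative r in 0. Besides Abcg5 with Abcg8 (r = 0.94, permutation p 2e-05, adjusted p 0.00045), Slc10a1 and Slco1b2 varied together from liver to liver: r was 0.84 (rho 0.86, permutation p 2e-05, adjusted p 0.00045), 0.87 in males and 0.78 in females, and 0.78 without the 2 livers farthest from the median of Slc10a1. Slco1a1 also varied with these uptake carriers. Its r with Slc10a1 was 0.53 (rho 0.59, permutation p 0.00094, adjusted p 0.0105), and 0.47 without the 2 farthest livers, with 0.92 in males and 0.52 in females. Its r with Slco1b2 was 0.49 (rho 0.59, permutation p 0.0011, adjusted p 0.0105) and 0.50 without the 2 farthest livers, with 0.84 in males and 0.50 in females. Whether these relations differ between the sexes was not tested.

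The exporters Abcb4 and Abcc3 formed the remaining pair, with r = 0.61 (rho 0.71, permutation p 0.00117, adjusted p 0.0105) and 0.57 without the 2 livers farthest from the median of Abcb4. Abcb11 ran against both by value. Its r was -0.59 with Abcc3 (rho -0.47, permutation p 0.0103, adjusted p 0.0771) and -0.49 with Abcb4 (rho -0.46, permutation p 0.0352, adjusted p 0.176). Leaving out the 2 livers farthest from the median of Abcb11 gave -0.36 and -0.38. The values of a pair come from the same library, and control male replicate 4 combined the highest Abcb11, Slc10a1, Slco1b2 and Slco1a1 of its group with the lowest Abcb4, Abcc3 and Slco1a4. In that liver the summed hepatocyte markers were 76346 CPM, within 52918 to 77719 CPM over the control males. Its summed cholangiocyte markers were 33.4 CPM, the lowest of its group (33.4 to 134 CPM). Whether these marker sums, or the depth of that liver, the lowest of all, bear on this was not tested.

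**Figure D5:**
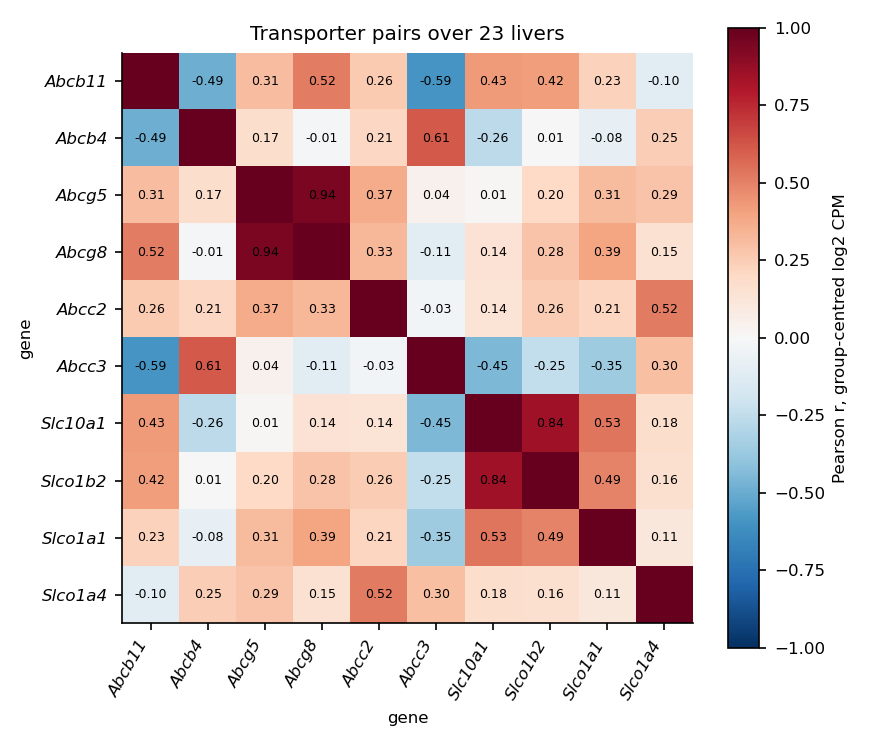
Each cell gives Pearson's r of 2 genes, on both axes, for log2 CPM with group means removed over 23 livers; red is positive and blue negative on a scale from -1 to 1. The pairs Abcg5 with Abcg8 (0.94) and Slc10a1 with Slco1b2 (0.84) stand out, and Abcb11 is negative with Abcb4 and Abcc3.

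Among 9500 genes over the same 23 livers, the genes whose group-centred log2 CPM was most like that of 3 members were listed as a description. For Abcb11 these were Mx2 (r = 0.89), Pdcd4 (0.87) and Kynu (0.87), for Abcg5 they were Abcg8 (0.94), Gsap (0.80) and Steap3 (0.75), and for Slco1a1 they were Mctp2 (0.87), Cyp2c54 (0.85) and Gm3734 (0.81).

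Other genes of bile formation were counted in the same fits. Of 17 receptors and regulators, edgeR called 1 lower in females and 0 in males, with 4 and 2 at an unadjusted p under 0.05. DESeq2 called 1 in each sex, Fgfr4 in females and Cebpa in males (DESeq2 adjusted p 0.0498). The gene that edgeR called was also Fgfr4, the hepatic receptor for the ileal hormone FGF15. It was at 51.2 ± 5.72 CPM in control females and 37.8 ± 5.07 CPM in LKO females (SD, n = 6 each), a log2 difference of -0.44 (SE 0.098, edgeR adjusted p 0.0395). The bile acid receptor Nr1h4 had log2 fold changes of 0.065 in females (SE 0.078) and 0.060 in males (SE 0.13), and its target Nr0b2 had -0.10 (SE 0.26) and -0.60 (SE 0.43), none called. edgeR called 0 of the other bile acid, sterol and bile constituent transporters in males (17 tested, 3 at an unadjusted p under 0.05, 1 called by DESeq2) and 0 in females (16 tested, 5 and 0). It also called 0 of 12 canalicular scaffold and junction genes (2 at an unadjusted p under 0.05 and 1 by DESeq2 in each sex) and 0 of 14 tested bile acid synthesis genes (2 in males and 5 in females, and 1 by DESeq2 in each sex). Over all genes tested, edgeR called 0.00724% in males and 1.42% in females. Its unadjusted p was under 0.05 for 12.5% and 15.6%, and DESeq2 called 1.27% and 3.64%. The genes with the lowest p in these lists were Slc47a1 (log2 difference 0.37), Cebpa (-0.28), Cldn3 (-0.48) and Cyp39a1 (-0.50) in males and Abcg2 (0.35), Fgfr4, Ceacam1 (-0.39) and Slc27a5 (-0.21) in females, none called by edgeR apart from Fgfr4. Of the sex-biased liver genes, edgeR called 1 between genotypes: Hsd3b5, a male-biased steroid dehydrogenase, was lower in LKO females (edgeR adjusted p 0.00941), at 0.810 to 7.89 CPM in control females and 0 to 0.239 CPM in LKO females. DESeq2 called 3 male-biased genes in females, Hsd3b5 lower and Mup20 (adjusted p 0.0212) and Selenbp2 (adjusted p 0.0186) higher, the last chosen after its value was seen, and 0 sex-biased genes in males. Within each list the lowest p was that of Mup20 (male-biased) and Cyp17a1 (female-biased) in males, and of Hsd3b5 and Cyp2b9 in females.

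Between the control livers, 7 of 17 other transporters, 6 of 17 regulators, 4 of 12 scaffold and junction genes and 6 of 14 synthesis genes were called, beside 18% of all genes tested. Slco2b1, Slc10a5, Abcb1a and Abcc6 were higher in females and Slc10a2, Abcg2 and Abcb1b were lower. Abcg2, an exporter of conjugates and urate at the canalicular membrane, was at 84.8 ± 10.1 CPM in control males (SD, n = 5) and 26.8 ± 4.42 CPM in control females (SD, n = 6), with a log2 difference of -1.66 (SE 0.12). Among the 17 regulators, Nr1i3, Nr1i2, Klb, Hnf4a and Nr5a2 were called higher in females and Gata4 lower, by 0.49 on the log2 scale. The xenobiotic receptor Nr1i3 was at 24.4 ± 3.68 CPM in control males (SD, n = 5) and 60.2 ± 10.3 CPM in control females (SD, n = 6). Of the scaffold and junction genes, Rdx and Pdzk1 were called higher in females and Cldn3 lower. Of the synthesis genes, Cyp7a1, Cyp39a1 and Akr1d1 were called higher and Cyp7b1, Hsd17b4 and Scp2 lower.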

How the data were processed

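Poly(A) RNA from 23 livers was sequenced from dUTP libraries, per the labels' protocols. Alignment used HISAT2 2.0.5 and mm39, per the submitters' processing notes; the counter and its use of strand are not given in the sources used here. The authors deposited raw counts per gene and FPKM values in 1 table per sex. They also deposited normalized counts (a signal equal to count over a size factor), log2 fold changes and p-values for LKO against control. The members and gene lists were chosen with earlier results of these data known. By rule the text names the members, Cpt1a, list genes called in a comparison (sex-biased genes between the sexes only as counts), the lowest-p gene of each list per sex, and genes most like 3 members; Nr1h4 and Nr0b2 were added after their values were seen. Some results are not reported here.

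Counts were tested with edgeR 4.0.16 (filterByExpr, TMM, quasi-likelihood test, Benjamini-Hochberg over all genes tested, called at adjusted p under 0.05) in R 4.3.3, each sex alone. The interaction used all 23 livers, and the sexes were compared on 11 controls. Alternatives were other size factors, filters, DESeq2 1.42.0, limma-trend 3.58.1 on FPKM (log2 after adding 1, or 0.1), all 23 livers in 1 fit, a replicate block and leaving out each liver. The tests were tried on simulated data. Correlations used 100000 permutations.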

Additional observations from a re-analysis of the deposited data

Results flagged for a closer look

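Of 40 combinations of member and group, 4 held a liver far from the others of its group by Dixon's criterion, and chance flags about 1 in 20 such groups. Abcc3 in control male replicate 4 was 139 CPM, beside 267 CPM in the nearest liver of that group. Slco1a1 in the same liver was 328 CPM, beside 148 CPM in the nearest. Abcb4 in LKO male replicate 5 was 381 CPM, beside 298 CPM in the nearest. Slco1a1 in LKO female replicate 5 was 65.9 CPM, beside 28.9 CPM in the nearest.

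Abcc2 pointed in opposite directions in the 2 sexes: all 6 LKO males were above the mean of the control males and all 6 LKO females were below the mean of the control females. The difference of the 2 genotype effects was -0.55 on the log2 scale (edgeR adjusted p 0.136, DESeq2 adjusted p 0.0140).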

How the results depend on the processing

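With the replicate number as a block, 2 genes in males, 334 in females and 991 between the controls were called, in place of 1, 194 and 2465. Of the members the block called 1 in females (Abcb11, adjusted p 0.0284) and lost Abcc2 between the controls (adjusted p 0.0558). Pair correlations of livers with the same number spanned -0.35 to 0.40 in males (median -0.033), and 1 of 5 correlated best with its own number. In females they spanned -0.0076 to 0.17 (median 0.13), with 4 of 6 pairs above 0.1. There 4 of 6 livers correlated best with their own number, so the female livers deviated together in part, and weakly. The main fits did not take the numbers as pairs, and whether a number marks a shared source was not tested. In males 2 genes were called with library size alone, 2 with no filter, 3 with at least 10 counts in every sample, 106 with DESeq2 and 5 in the fit of all 23 livers. In females DESeq2 called 554 genes and the fit of all 23 livers 94. Of the members, library size alone called 1 in females (Abcb4, adjusted p 0.0427) and DESeq2 3. For the interaction DESeq2 called 88 genes and 1 member.

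Leaving out 1 liver gave 1 to 2 genes in males, 87 to 233 in females and 0 to 17 for the interaction, and 0 to 2 members in females. Counts of genes moved by over 1.5 times without control female 1, 5 or 6 or LKO female 2, 3 or 4, without control male 1 in males, and without control male 4 for the interaction. Signs turned for members near 0. Slco1b2 in males was 0.035 with library size alone, and Slco1a4 in females 0.029. Slco1a1 in females was 0.24 and 0.52 on log2(FPKM + 1) and log2(FPKM + 0.1), and 0.42 with the block; its interaction was 0.070, 0.35 and 0.34. Without single livers, male values ran from -0.36 to 0.0021 for Abcb11, -0.21 to 0.038 for Slc10a1, -0.094 to 0.057 for Slco1b2 and -0.14 to 0.54 for Slco1a1. Female values ran from -0.59 to 0.44 for Slco1a1 and -0.11 to 0.13 for Slco1a4, and interaction values from -0.14 to 0.089 for Abcc3 and -0.68 to 0.36 for Slco1a1. The causes were not tested. FPKM was not run between the sexes, whose tables were normalized apart. The lowest count behind a member was 36 (Slco1a1 in a control female), and 151 in males (Slco1a4).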
